A study of Mus musculus with 4 samples.

Results

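The comparison described here is that of 2 of the 4 libraries of the series, the whole-cell libraries labelled shDis3l2 and shNS, over all classes of RNA that the deposited table counts. Both were made from RAW264.7, a mouse macrophage-like cell line. The cells carried a short hairpin RNA against Dis3l2 (shDis3l2) or a control hairpin (shNS). Both lines received doxycycline at 1 µg/mL for 3 days, and RNA was taken after a further 24 h in doxycycline medium with serum depleted of vesicles. The other 2 libraries hold RNA of extracellular vesicles shed by the same lines, and their values are given where they bear on a result. Each group is 1 library, so no difference below has a replicate check and no p-value was computed. The labels do not say whether the lines are clones or pools. Intervals are 95% intervals for counting error only, and reads of a PCR library are not independent molecules.

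Dis3l2 is a cytoplasmic exonuclease that degrades RNAs carrying oligouridine tails, among them tailed let-7 precursors and faulty structured noncoding RNAs. Small nucleolar RNAs (snoRNAs) are excised from introns of longer transcripts, many of which encode ribosomal proteins or are long noncoding RNAs of the Snhg family. Box C/D snoRNAs guide ribose methylation of rRNA, and box H/ACA snoRNAs guide pseudouridylation. A library of short reads can count such a snoRNA either under its own name or under a longer annotated transcript that retains the intron around it.

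The cell libraries held 19741041 counts (labelled shNS) and 18416554 counts (labelled shDis3l2). Transcripts were summed to genes, counts were scaled to CPM, that is to a fixed total over all features, and 3404 genes with at least 100 counts over both libraries were compared. A gene was called higher or lower where its ratio was at least 2-fold and the interval of the ratio excluded 1. By that rule 469 genes (13.8%) were higher in the library labelled shDis3l2 and 170 (4.99%) were lower, with a median log2 ratio of 0.10 over all genes. The miRNA hairpins fell from 68.3% to 61.2% of counts, and with features other than miRNA hairpins as the scale every log2 ratio is lower by 0.29. The split of calls is then 313 higher and 336 lower, so that medians below reported between 0 and 0.29 change sign with that scale. Ratios are therefore best read against each other and against the median of all genes. The scale without miRNA hairpins still includes mRNA and lncRNA genes whose most counted transcript holds a hairpin. Those measured had 1384461 and 1162685 counts.

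Dis3l2, the targeted gene, went against its label. Its cell counts were 41 under the label shNS and 13232 under the label shDis3l2, a log2 ratio of 8.42 (7.99 to 8.91). Transcript Dis3l2-206 held 99.8% of the counts under shDis3l2 and 47.6% of those under shNS. The vesicle libraries had 1713 and 1894 counts of the gene. The hairpin against Dis3l2 carries bases of Dis3l2, and its reads cannot be told apart from those of the gene in this table. What part hairpin reads have in this ratio was not tested. The libraries are therefore called by their labels throughout.

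The markers of macrophages were present at low level. The 12 macrophage markers summed to 857 and 814 counts, and 6 of them passed the minimum of 100 counts. None of these was called, and their median log2 ratio was -0.27. Lyz2, a lysozyme, had 223 and 122 counts, Cd68 63 and 48, and Csf1r, the receptor of macrophage colony-stimulating factor, 106 and 184. Markers of other cell types summed to 91 and 84 counts (4 endothelial), 63 and 53 (4 fibroblast), 25 and 28 (4 lymphoid), 8 and 7 (4 erythroid) and 8 and 10 (4 epithelial). Krt8, Hba-a1 and Hbb-bt were at 0 in both libraries.

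Outside the miRNAs, the shares of snRNAs and miscellaneous RNAs rose by the largest factors, 2.28 and 2.40. In percentage points snoRNAs and mRNA genes gained more. The snRNAs took 0.230% (0.228 to 0.233) of counts under shNS and 0.525% (0.522 to 0.528) under shDis3l2. Miscellaneous RNAs, which include Y, 7SK and 7SL RNAs, took 0.700% and 1.68%. Of their 138213 and 308999 counts, Gm24379 held 78782 and 205277 and Rny3 15907 and 65444. The share of snoRNAs was 8.70% (8.69 to 8.71) and 11.1% (11.1 to 11.1). The mRNA genes took 6.92% and 8.79%, tRNAs 4.04% and 5.18%, mitochondrial RNAs 2.43% and 3.15%, and rRNA 1.56% and 1.98%. These 5 classes thus moved by nearly the same factor, with log2 ratios from 0.34 to 0.38. As shares of features other than miRNA hairpins they were nearly level: 27.4% and 28.7% for snoRNAs, 21.8% and 22.7% for mRNA genes and 12.7% and 13.4% for tRNAs. The lncRNA genes were lower on both scales, at 6.69% and 5.90% of all counts. Of their counts, 1007007 and 773138 lay on 17 measured lncRNA genes whose most counted transcript holds a miRNA hairpin. The 329 measured lncRNA genes whose most counted transcript holds no annotated small RNA stood at 11672 and 12178 CPM. Pseudogenes stood at 0.402% and 0.394%.

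**Figure D1:**
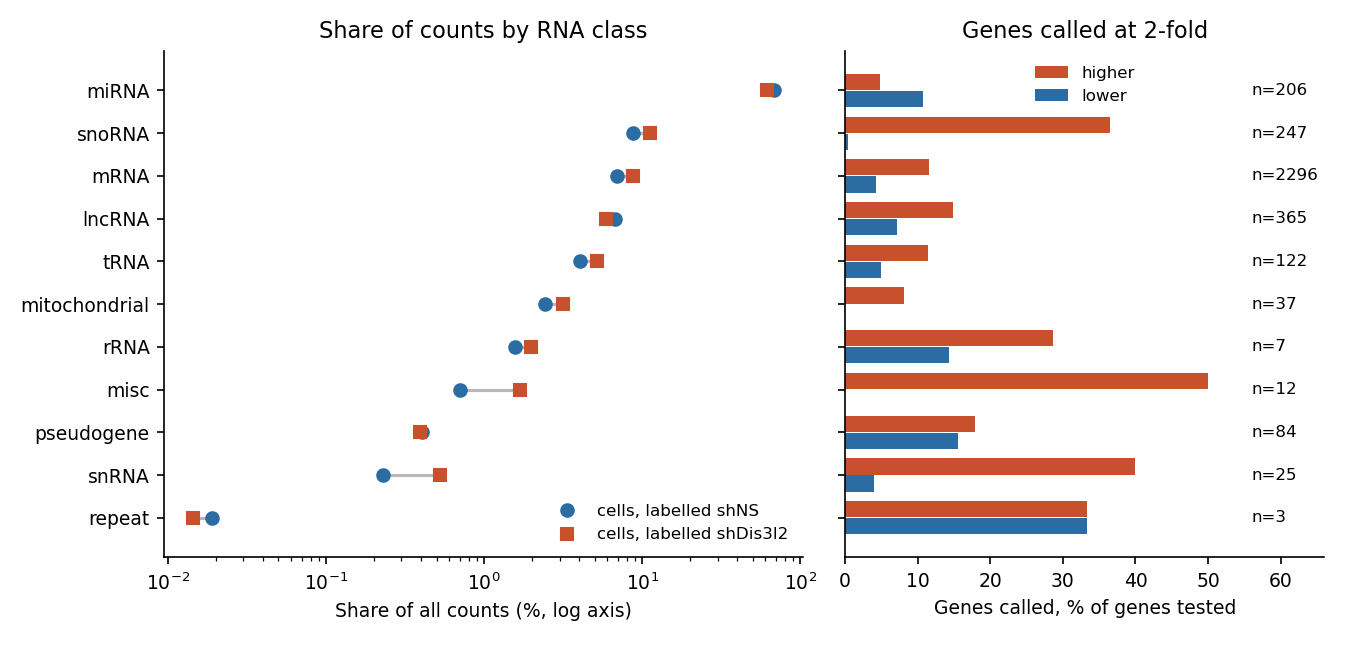
Share of all counts by RNA class in the 2 cell libraries (left, percent on a log axis, one point per library) and the percent of tested genes of each class called higher (red) or lower (blue) in the library labelled shDis3l2 (right, n is the number of genes tested). The shares of snRNAs and miscellaneous RNAs moved by the largest factors, and 90 of 247 snoRNAs were called higher against 1 lower.

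Of 247 snoRNAs, 90 were higher and 1 lower (median 0.58). Of 25 snRNAs 10 were higher and 1 lower (median 0.74), and of 12 miscellaneous RNAs 6 were higher and 0 lower (median 0.84). Among 2296 mRNA genes 264 were higher and 99 lower (median 0.09), and among 365 lncRNA genes 54 and 26 (median 0.01). The shares of mRNA genes called, 11.5% higher and 4.31% lower, were near those of all genes. Of 84 pseudogenes 15 were higher and 13 lower (median -0.04).

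The long genes that stood apart were those counted on a transcript that holds a snoRNA. For each mRNA or lncRNA gene, its most counted transcript was searched for annotated small RNAs lying wholly inside a same-strand exon. That transcript was picked on the sum of the 2 cell libraries. A high count under either label could thus place a gene in its group, and the groups are not independent of the ratios. Rpl5, for example, had 59 and 537 counts on its snoRNA-holding transcript and 97 and 109 on its others. Of 39 genes whose most counted transcript held a snoRNA, 24 were higher and 0 lower, with a median log2 ratio of 1.43. Of 2547 genes whose most counted transcript held no annotated small RNA, 287 were higher and 121 lower (median 0.08). Of 61 genes whose most counted transcript held a miRNA hairpin, 5 were higher and 4 lower (median -0.12). The genes with a snoRNA were 28 mRNA genes, 19 of them higher, and 11 lncRNA genes, 5 of them higher. Where the most counted transcript was typed as a retained intron and held no small RNA, 60 of 488 genes (12.3%) were higher and 20 lower (median 0.12). Where it was typed as protein coding and held none, 148 of 1510 (9.80%) were higher and 68 lower (median 0.07). Over all genes 13.8% were higher. The parts of the snoRNA and of the retained intron in the ratios of host genes were not tested.

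**Figure D2:**
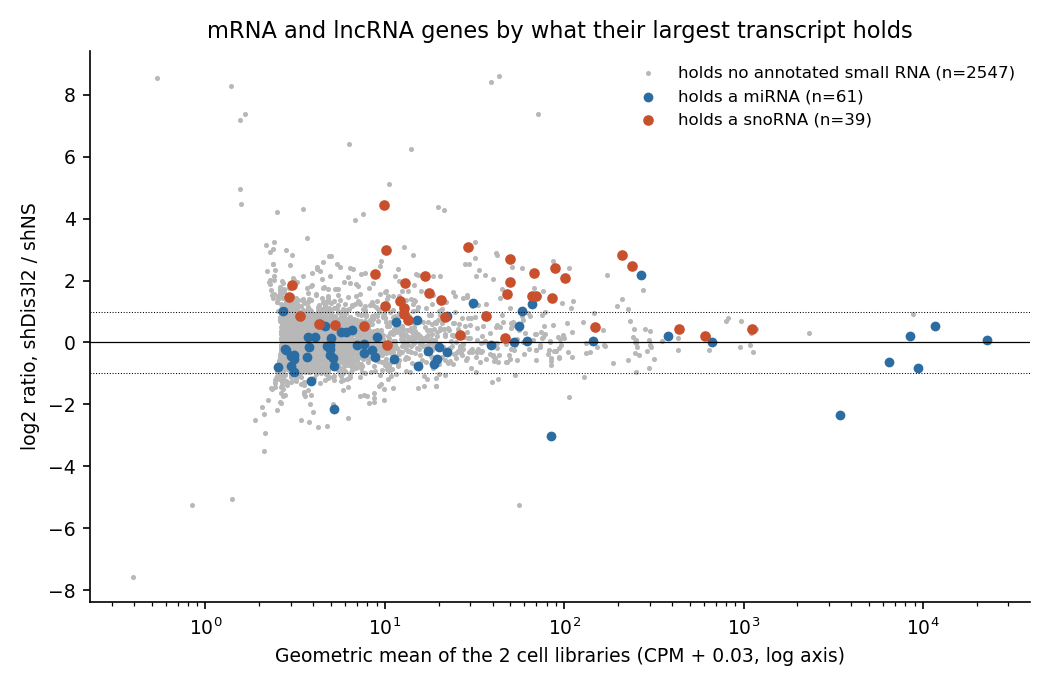
Log2 ratio of CPM (shDis3l2 over shNS) against the geometric mean CPM of the 2 cell libraries (log axis), one point per mRNA or lncRNA gene tested, coloured by what the gene's most counted transcript holds. Genes holding another kind of small RNA are not drawn. The 39 genes with a snoRNA lie mostly above the upper dotted line (2-fold), while the 61 with a miRNA hairpin lie around 0.

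The snoRNA-bearing stretches of 5 such transcripts are shown because the results below compare counts of the snoRNA with counts of the transcript around it. Capitals mark the annotated snoRNA and lower case the neighbouring bases of the host transcript, at most 15 on each side. The letters are those of the GENCODE M21 transcripts (GRCm38), 5′ to 3′ on the transcript's strand. Only the lower-case letters tell a host read from a snoRNA read, so a read wholly inside the capitals fits both.
Snord50b in Snhg5-205, chr9:88521782-88521869, minus strand: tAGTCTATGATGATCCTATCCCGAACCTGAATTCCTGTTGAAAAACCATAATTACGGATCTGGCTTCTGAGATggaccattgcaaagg
Snord12 in Zfas1-202, chr2:167065261-167065380, plus strand: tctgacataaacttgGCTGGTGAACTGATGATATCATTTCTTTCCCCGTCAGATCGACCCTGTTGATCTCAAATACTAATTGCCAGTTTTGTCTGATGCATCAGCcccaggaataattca
Snord14c in Hspa8-208, chr9:40803568-40803683, plus strand: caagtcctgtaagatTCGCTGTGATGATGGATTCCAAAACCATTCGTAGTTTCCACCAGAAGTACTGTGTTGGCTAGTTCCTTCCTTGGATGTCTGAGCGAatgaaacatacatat
Snora24 in Snhg8-202, chr3:123507922-123508081, minus strand: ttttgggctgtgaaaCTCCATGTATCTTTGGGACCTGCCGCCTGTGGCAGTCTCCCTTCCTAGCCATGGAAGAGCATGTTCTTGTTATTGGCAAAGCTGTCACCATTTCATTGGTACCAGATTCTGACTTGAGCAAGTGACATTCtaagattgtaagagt
Snora28 in Eif5-204, chr12:111540926-111541082, plus strand: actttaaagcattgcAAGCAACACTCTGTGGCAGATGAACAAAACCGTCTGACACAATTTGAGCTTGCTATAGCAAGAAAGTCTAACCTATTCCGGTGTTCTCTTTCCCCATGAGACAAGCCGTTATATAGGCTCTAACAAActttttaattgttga

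The Snord50b, Snord12 and Snord14c sequences hold the letters TGATGA within their first 20 bases and CTGA within their last 15, as box C and box D do. On the given strand 13.3% of the 1414 snoRNA sequences hold both. The other strand was not searched, and a match is a description of the letters only.

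The transcripts around the snoRNAs were higher while most of the snoRNAs themselves were not. Over 45 host genes with at least 100 counts on snoRNA-holding transcripts, those transcripts were higher in 27 and lower in 0 (median 1.30). Over all genes 13.8% were higher and 4.99% lower. The minimum is on both libraries together, so some hosts passed it only through their counts under shDis3l2. Snhg8 (22 and 836 counts) and Rps2 (18 and 83) are examples, and such hosts could hardly be other than higher. In sum they went from 57119 to 105175 counts, 1.97-fold in CPM. In 35 of the hosts the snoRNAs were also measured: summed per host, they were higher in 8 and lower in 1, with a median of 0.16. Among these 35 the host transcripts had the higher log2 ratio in 30, with the intervals apart in 26, and the lower one with the intervals apart in 2. The median difference was 0.77. In 16 hosts the transcripts were called higher while the snoRNAs stayed within 2-fold. With the scale of features other than miRNA hairpins, 23 of the 45 hosts were higher and 0 lower.

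Among the noncoding hosts the gap ran from wide to narrow. Snhg8, the host of the H/ACA snoRNA Snora24, had 22 and 836 counts on the holding transcript, a log2 ratio of 5.32 (4.74 to 6.03). Snora24 itself had 516 and 759 counts (0.66). The transcripts of Zfas1 that hold Snord12 and its neighbours had 70 and 516 counts (2.97, 2.62 to 3.36), and the 3 snoRNAs together 26608 and 26681 (0.10). In Snhg5 the transcripts around Snord50b and Snord50a had 387 and 2327 counts (2.69, 2.53 to 2.85), and the snoRNAs 3941 and 3520 (-0.06). Per 100 snoRNA counts the host transcripts of Snhg5 thus numbered 9.82 under shNS and 66.1 under shDis3l2. Snhg12 had 813 and 2147 counts on its holding transcripts (1.50) and 3147 and 2943 on its snoRNAs (0.00). Gas5, which holds 10 snoRNAs and dominates the group in depth, moved little in sum. It had 19059 and 23914 counts on its transcripts (0.43) and 654263 and 639320 on its snoRNAs (0.07). Single Gas5 transcripts differed. The one around Snord80 had 1096 and 4144 counts (2.02) and the one around Snord47 474 and 1972 (2.16), with those snoRNAs at -0.40 and -0.10. The transcripts around Gm23212 had 146 and 164 counts (0.27), with that snoRNA at -0.03.

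Coding hosts showed such gaps too. Rps13, a protein of the small ribosomal subunit, had 494 and 1810 counts on transcripts around Snord14a (1.97, 1.83 to 2.12), with 1012 and 927 counts of the snoRNA (-0.03). The Rpl7a transcript that holds snoRNAs had 165 and 788 counts (2.35), while its other transcripts had 4810 and 3790 (-0.24) and the snoRNAs 63062 and 61923 (0.07). At 2410002F23Rik, which holds Snord88a and 2 further snoRNAs, the transcripts had 1565 and 10362 counts (2.83) and the snoRNAs 1027 and 1046 (0.13). In 19 hosts the transcripts without a snoRNA were also measured. There, 5 were higher and 1 lower (median 0.54), against 12 higher for the snoRNA-holding transcripts of those hosts (median 1.14). In those 5 hosts the transcripts without a snoRNA had the larger ratio. They were Rpl4 (2.59 against 1.50), Snhg17 (3.40 against 1.03), Nop56 (2.30 against 1.01), Gnl3 (1.49 against 0.88) and Rabggtb (7.09 against -0.12).

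Some hosts went otherwise. Hspa8 encodes the constitutive heat-shock cognate chaperone, and its introns hold copies of the U14 snoRNA, which is needed for rRNA processing. Its holding transcript had 1993 and 10335 counts (2.47, 2.41 to 2.54), and its 3 snoRNAs Snord14c, Snord14d and Snord14e rose with it, from 26362 to 103714 (2.08, 2.06 to 2.10). Rps3 with Snord15b (2.40 against 1.16) and Eif4a1 (1.79 against 1.42) were also higher in both. At Rpl32 the snoRNA Snora7a was higher (328 and 933 counts, 1.61) and the transcript around it was not (882 and 898, 0.13). At Rabggtb the holding transcript stood at -0.12, its snoRNAs at 0.46 and its other transcripts at 13 and 1716 counts. At Eif5, a translation initiation factor, Snora28 had 445 counts and 0, and the transcripts around it 157 and 1527. Summed, the pair had 602 and 1527 counts (1.44). Snora28 is the only snoRNA called lower, and reads within it fit both features.

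**Figure D3:**
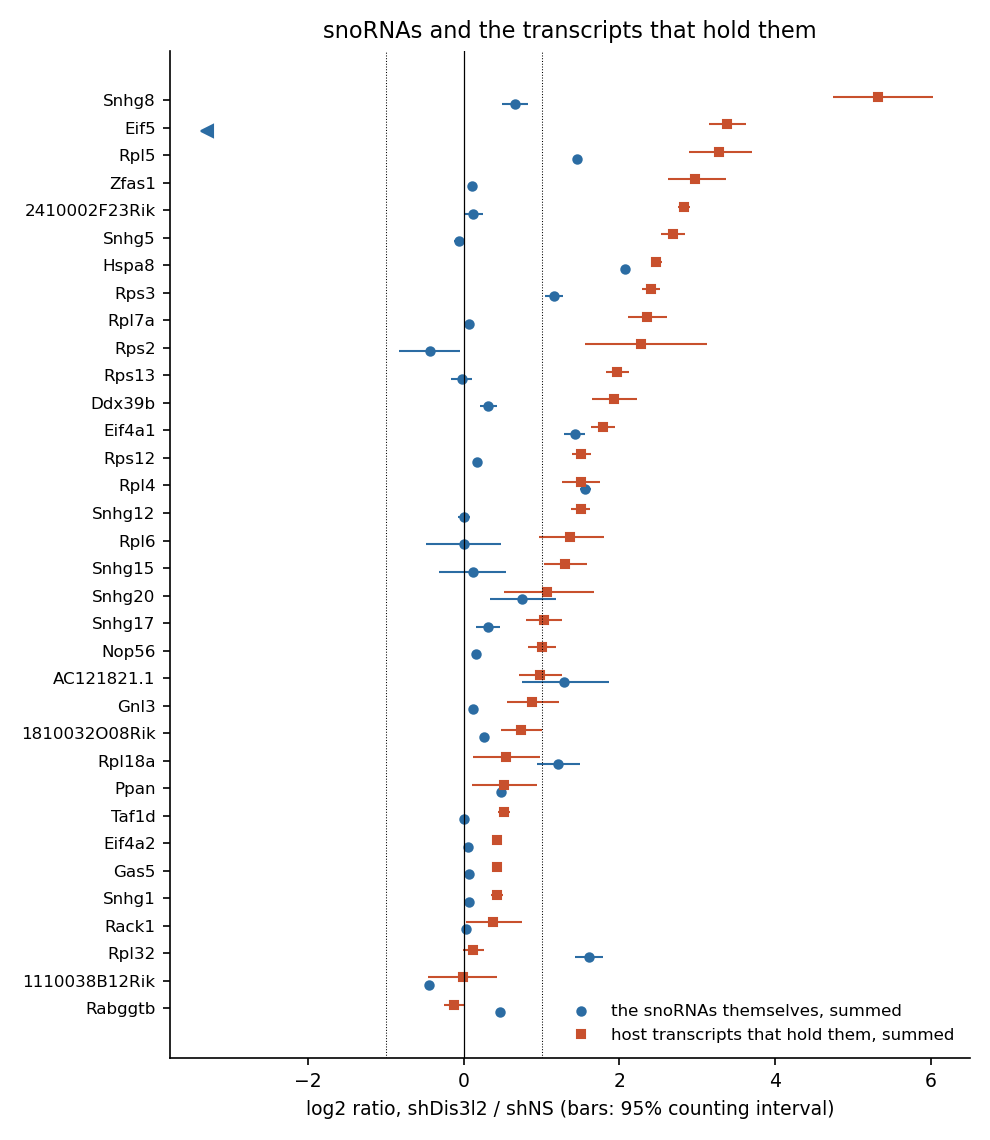
Log2 ratio (shDis3l2 over shNS) of the snoRNAs (blue circles, summed per host) and of the host transcripts that hold them (red squares, summed) for the host genes where both were measured, 1 of the 35 left undrawn; bars are 95% counting intervals and dotted lines mark 2-fold. The triangle at Eif5 marks a value beyond the axis, from 445 counts to 0. Over all 35 hosts, the transcripts had the higher ratio in 30.

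Ribosomal protein mRNAs, the templates of the proteins of both ribosomal subunits, were often higher. Of 83 members 56 passed the minimum of 100 counts, and 24 of these (42.9%) were higher and 0 lower, against 13.8% higher over all genes. On the scale of all features 52 had a log2 ratio above 0 (median 0.91, range -0.31 to 3.39). All 83 summed to 27514 and 46645 counts (1.82-fold in CPM), and the 27 under the minimum to 612 and 915 (1.60-fold). The family overlaps the snoRNA hosts: of 15 members whose most counted transcript holds a snoRNA 11 were higher (median 1.60). It did not consist of them alone. Of 41 members whose most counted transcript holds none, 13 were higher (median 0.89), and of the 35 with no annotated snoRNA in any transcript 12 were higher (median 0.91). With the scale of features other than miRNA hairpins the median of the 56 is 0.62.

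Among the members on a snoRNA-holding transcript, Rps3 had 764 and 3756 counts (2.40, 2.29 to 2.51) and Rpl27a 963 and 3838 (2.09, 1.99 to 2.20). These genes and the others named in this paragraph were picked for the size of their ratio or for their part in the ribosome after the values were seen. Without a snoRNA in the most counted transcript, Rpl23a had 22 and 219 counts (3.39, 2.78 to 4.12) and Rpl4 907 and 4520 (2.42, 2.31 to 2.52), both mostly on retained introns. On transcripts typed as coding, Rplp1, a protein of the ribosomal stalk, had 138 and 409 counts (1.66, 1.39 to 1.96), and Rps27 had 152 and 292 (1.04, 0.75 to 1.33). The core stalk protein Rplp0 had 66 and 128 counts (1.05, 0.62 to 1.51). On the scale of features other than miRNA hairpins Rps27 and Rplp0 are below 2-fold. Rpl13, the deepest member, moved little, with 11094 and 12093 counts (0.22, 0.19 to 0.26).

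Of 8 genes of iron and translation control 3 were higher and 0 lower, where 13.8% of all genes were higher. On the scale of features other than miRNA hairpins 1 is higher, and Eef1a1 and Tpt1 lose their calls. Eif4g2, a translation initiation factor, had 2545 and 6330 counts (1.41, 1.35 to 1.48), and Eef1a1, elongation factor 1-alpha, 396 and 889 (1.27, 1.09 to 1.44). Tpt1 had 55 and 120 counts (1.22, 0.75 to 1.71). Eef2, at 0.95, and Pabpc1, the poly(A)-binding protein, at 0.87, were below 2-fold, while the ferritin chain Fth1 stood at -0.34 and the transferrin receptor Tfrc at -0.64. Of the histone genes 22 of 83 members were measured, 1 of them, H3f3aos, was higher, and their median was 0.13. By its symbol H3f3aos is an antisense transcript.

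Of 20 lysosomal and secretory genes 10 were measured, 0 were higher and 2 lower (median -0.41), against 4.99% lower over all genes, and the 20 summed to 1730 and 1031 counts. Gpnmb, a lysosomal glycoprotein of macrophages, had 239 and 34 counts (-2.70, -3.28 to -2.19), and the protease legumain, Lgmn, 287 and 80 (-1.74, -2.12 to -1.38). The cathepsins Ctsb (-0.61) and Ctsl (-0.71) had intervals below 0 without reaching 2-fold, while Lamp1 (0.61) and Grn (0.33) lay above 0. Of the NF-kB and inflammatory genes 5 of 20 were measured and none was called. Tnf had 325 and 242 counts (-0.32, -0.57 to -0.08) and the NF-kB inhibitor Nfkbia 113 and 110 (0.06, -0.33 to 0.45). Of 11 measured genes of the cytoskeleton and metabolism, 2 (18.2%) were higher, near the 13.8% over all genes. They were Hspa8, counted mostly on its snoRNA-holding transcript, and the pyruvate kinase Pkm (136 and 286 counts, 1.17). Of 5 measured genes of RNA decay and tailing, 2 (40%) were higher: the target Dis3l2 and Cnot1, the scaffold of the CCR4-NOT deadenylase (86 and 181 counts, 1.17). Tut7, a uridyltransferase, had 71 and 73 counts (0.14, -0.35 to 0.63) and the exonuclease Xrn1 142 and 94 (-0.49).

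The largest ratios among mRNA genes with at least 10 CPM in a library came from a single transcript each, and many of these genes were also present in vesicles under both labels. Snapc3, a subunit of the snRNA-activating complex, had 43 and 15804 counts in cells (8.61, 8.19 to 9.09) and 1655 and 2231 in vesicles. Its retained intron Snapc3-205 (chr4:83463976-83467211) held 99.9% of the counts with the label shDis3l2. R3hdm1 had 109 and 17001 counts (7.38, 7.11 to 7.67), with 1872 and 2715 in vesicles, on the retained intron R3hdm1-202 (chr1:128103331-128111788). Lmbrd1, a lysosomal membrane protein, had 31 and 2233 counts (6.25) and Sema7a, a semaphorin, 13 and 1070 (6.41). In vesicles Lmbrd1 had 290 and 420 counts and Sema7a 84 and 127. The cell library labelled shNS was thus the lowest of the 4 for Snapc3, Dis3l2, R3hdm1, Lmbrd1, Sema7a and Phex.

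Cdca3, a cell division gene, ran differently, with 95 and 1726 counts in cells (4.28) and 6675 and 7403 in vesicles, where it was highest. Apoc2, an apolipoprotein, had 1 and 434 counts in cells and 52 and 0 in vesicles, and Gm7247 had 2 and 389. Their ratios rest on 1 and 2 counts: the interval of Apoc2 runs from 6.38 to 14.17 and that of Gm7247 from 5.84 to 10.75. Phex, an endopeptidase gene of bone, had 35 and 1147 counts (5.11) and Adrb3, a beta-adrenergic receptor, 86 and 1665 (4.37). Over all classes, 60 genes called higher had less than 5 CPM under shNS and at least 10 CPM under shDis3l2. Of these 60 genes, 29 had at least 5 CPM in both vesicle libraries. The share of all genes at that vesicle level is not given here, so the 29 cannot be read against a background. As a class, mRNA genes took a larger share of counts in vesicles than in cells under both labels. What part vesicle RNA has in the ratios of the genes above was not tested.

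**Figure D4:**
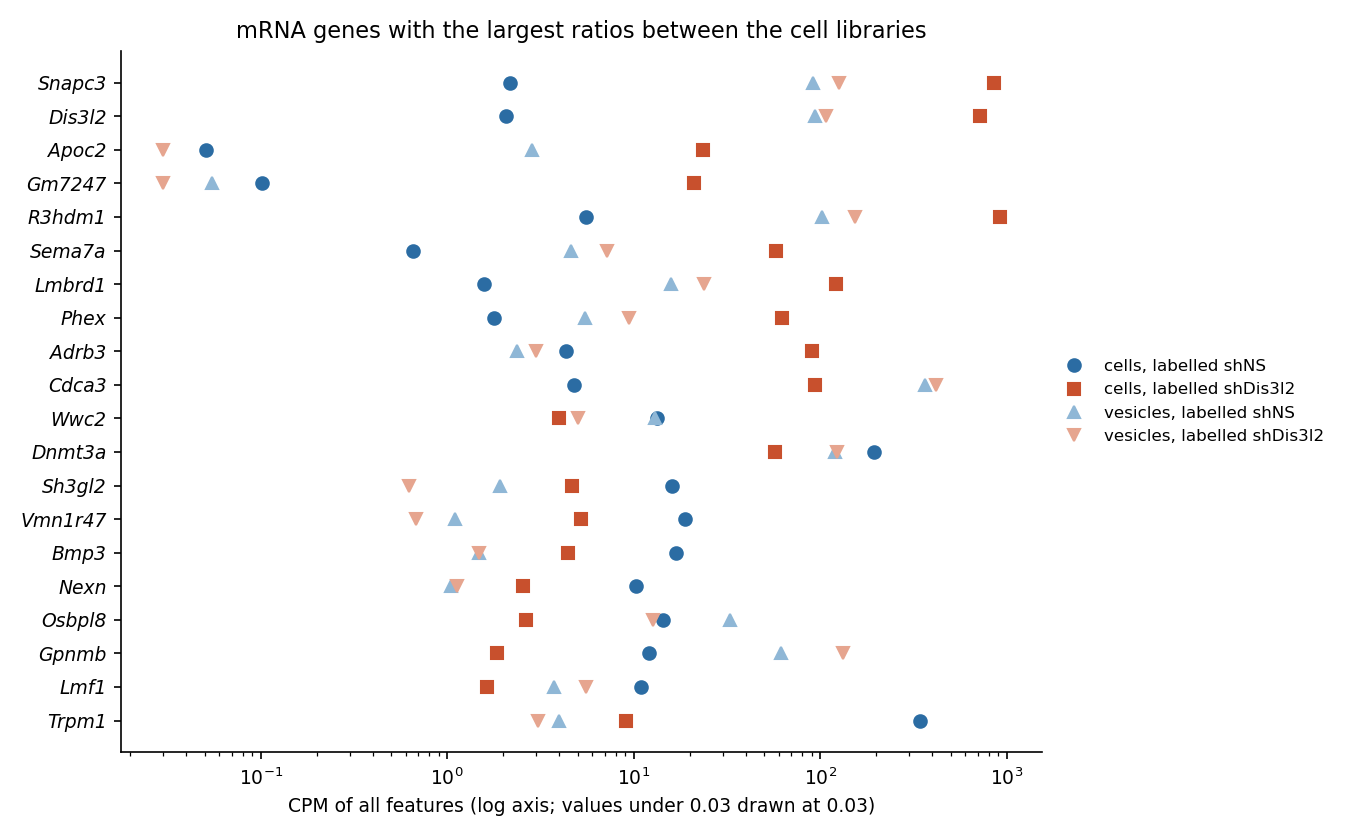
CPM (log axis) in each of the 4 libraries for the mRNA genes with the largest ratios in either direction between the cell libraries, ordered by ratio, one point per library. In the upper 10 genes the red square of the cell library labelled shDis3l2 lies far right of the blue circle labelled shNS, and for 6 of them both vesicle points lie between the cell points.

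At the lower end stood Trpm1, a cation channel of melanocytes and retina, with 6796 and 167 counts (-5.24, -5.48 to -5.02), nearly all on Trpm1-219 and with 72 and 54 counts in vesicles. Dnmt3a, a DNA methyltransferase, was the other deep gene of this end, with 3835 and 1059 counts (-1.76, -1.86 to -1.66) and 2187 and 2156 in vesicles. Lmf1, a lipase maturation factor, had 215 and 30 counts (-2.72), Osbpl8, an oxysterol-binding protein, 284 and 49 (-2.42), and Nexn, an actin-binding protein, 203 and 47. Bmp3, a secreted growth factor of the TGF-beta superfamily, had 335 and 82 counts (-1.92), and the vomeronasal receptor gene Vmn1r47 371 and 96 (-1.84). Sh3gl2, an endophilin, stood at -1.78 and Wwc2 at -1.74. Of these, Gpnmb was higher in vesicles with the label shDis3l2 (1126 and 2335 counts).

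Abundant genes of the mRNA and lncRNA classes mostly carried miRNA hairpins. Mir17hg, host of the miR-17-92 cluster, had 435924 and 433675 counts (0.09), Mcm7, host of the miR-106b-25 cluster, 192347 and 259487 (0.53), and A330023F24Rik, which holds Mir29b-2 and Mir29c, 245223 and 129961 (-0.82). Reads within the hairpins fit both features. Across 64 genes with at least 100 counts on transcripts that hold a hairpin, 8 were higher and 5 lower (median -0.04). Luc7l3, a splicing factor gene, was the exception in having no annotated small RNA in Luc7l3-203, with 126342 and 221024 counts (0.91, 0.90 to 0.92).

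Among lncRNA genes outside the Snhg family, the highest ratios were those of Gm19299 (2 and 338 counts), Gm31517 (15 and 286) and 4632427E13Rik (35 and 580, 4.13). Of 17 Snhg genes, Gas5 and relatives 11 were measured and 5 (45.5%) were higher, against 13.8% over all genes (median 0.85). The 3 lowest lncRNA genes with at least 10 CPM held hairpins. Mir22hg, host of Mir22, had 4726 and 549 counts (interval -3.14 to -2.88), F630028O10Rik, host of Mir223, 152897 and 28416 (-2.33, -2.35 to -2.31), and C130071C03Rik, host of Mir9-2, 217 and 45 (-2.16). The Mir22 and Mir223 hairpins themselves were listed at 0 in both libraries, and reads within them fit the hairpin and any transcript that holds it. A transcript of Tlcd2 also holds Mir22 and had 2821 and 2690 counts (0.03, -0.05 to 0.11). Lower lncRNA genes without a hairpin were 1810021B22Rik (318 and 76 counts), Gm15496 (367 and 122) and A430010J10Rik (621 and 218). Of 7 measured nuclear lncRNAs 1 (14.3%) was higher, near the 13.8% over all genes, and 1, Mir22hg, was lower. The higher one was Firre, an X-linked RNA of nuclear organisation (45 and 86 counts, 1.03, 0.50 to 1.59). On the scale of features other than miRNA hairpins Firre is below 2-fold. Malat1 (-0.51) and Neat1 (-0.69) lay below 0 within 2-fold.

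The snoRNAs that were higher were mostly the longer ones. Of 25 snoRNAs under 70 nt 1 was higher (median 0.00), of 91 between 70 and 89 nt 23 (median 0.26), of 23 between 90 and 119 nt 12 (median 1.24) and of 108 of 120 nt or more 54, with 1 lower (median 1.00). By letters, 30 of 93 with both C and D motifs were higher (median 0.42). Of 82 of at least 100 nt that end in ACA followed by 2 to 4 bases, as H/ACA snoRNAs do, 40 were higher and 1 lower (median 0.97). By name, 27 of 76 measured Snord genes, 12 of 29 Snora genes and 3 of 8 Scarna genes (guides of snRNA modification) were higher. Length and motif class move together here, reads were 50 nt long, and the part of each in the result was not tested.

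Several deep snoRNAs that act in cleavage of the rRNA precursor were higher. They were picked after their values were seen. The U3 genes Rnu3b1 and Rnu3a had 13050 and 47879 counts (1.98) and 2897 and 10161 (1.91), and the U8 gene Snord118 10409 and 23630 (1.28). The U14 copies Snord14c, Snord14d and Snord14e, all within Hspa8, were at 2.20, 1.95 and 2.09. The fourth measured copy, Snord14a within Rps13, was not higher (1012 and 927 counts, -0.03). Copies of a snoRNA share most of their bases, so their counts can be divided among them. The deepest snoRNAs of all, Gm23212 of the Gas5 locus (445268 and 406662 counts, -0.03) and its neighbour Snord78 (80275 and 61401, -0.29), were not. Mir5117, which the annotation types as a snoRNA at the same locus, had 49017 and 101345 counts (1.15, 1.13 to 1.16).

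The largest snoRNA ratios were those of unnamed predicted genes. Gm26153 had 0 and 312 counts, at least 111-fold higher when the floor of 3 counts stands for 0. Gm23123 had 31 and 207 counts (2.82), Gm22767, a scaRNA, 84 and 441 (2.49), Gm25117 101 and 470 (2.31), Gm25394 234 and 1055 (2.27) and Gm26165 224 and 1001 (2.26). At the low end, no snoRNA but Snora28 reached 2-fold. Among those with at least 10 CPM, Gm22489 had 1546 and 984 counts (-0.55), Snord52 48439 and 32731 (-0.47) and Snord80 16681 and 11790 (-0.40). They are 62, 66 and 77 nt long.

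Among the snRNAs, those of the minor spliceosome had high ratios: Rnu12 had 1670 and 13773 counts (3.14) and Rnu11 253 and 1208 (2.35). Gm23849 (191 nt) had 4433 and 13703 counts (1.73, 1.68 to 1.78) and Gm25772 91 and 299 (1.81). Gm22513 had 0 and 610 counts, at least 218-fold higher, and Rnu1a1, which has the same length of 164 nt, had 7826 and 19937 (1.45). Rnu5g, of the U5 particle, was at 0.74 (1167 and 1820 counts), and Rnu7, of histone mRNA processing, at 0.42. Copies of the same length stood apart: Gm26316, also 191 nt, had 104 and 45 counts (-1.10) and Gm25939 638 and 532 (-0.16). Among the miscellaneous RNAs the Y RNA Rny3 had 15907 and 65444 counts (2.14), Gm24379 78782 and 205277 (1.48), and the 7SK RNA Rn7sk 577 and 1159 (1.11). Below 2-fold, Rny1 (-0.18), the 7SL gene Rn7s1 (-0.25), the RNase P RNA Rpph1 (-0.19) and the vault RNA Vaultrc5 (0.27) were not called.

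The rRNA genes that carry most counts moved with the class. The 5.8S gene n-R5-8s1 had 215825 and 249262 counts (0.31) and CT010467.1, a fragment of the large rRNA precursor by annotation, 90302 and 111059 (0.40). Copies of 5S rRNA disagreed: n-R5s106 had 167 and 597 counts (1.93), n-R5s102 1268 and 1550 (0.39) and n-R5s2 77 and 35 (-1.03). Such copies share most of their bases. Among the repeat sequences SINE_ID had 76 and 167 counts (1.23) and SINE_B2 201 and 86 (-1.12), and the 4.5S sequence 3455 and 2372 (-0.44). The pseudogene Gm9287 had 0 and 1228 counts, at least 439-fold higher, with 284 and 426 in vesicles.

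Of 46 tRNA anticodons with at least 100 counts 6 were higher and 0 lower (median 0.28), no larger a share than the 13.8% higher over all genes. On the scale of features other than miRNA hairpins 4 are higher and 0 lower, and the median is -0.01. The selenocysteine tRNA, SeC-TCA, which decodes UGA in selenoprotein mRNAs, had 796 and 3304 counts (2.15, 2.04 to 2.27). Ala-AGC had 6603 and 16996 (1.46) and Ala-TGC 1437 and 3619 (1.43). Cys-GCA had 13822 and 31617 (1.29), His-GTG 13821 and 29015 (1.17) and Ser-GCT 2016 and 4073 (1.11). At the other end stood Gln-TTG (7365 and 4389 counts, -0.65), Pro-AGG (232 and 148, -0.55), Pro-CGG (10638 and 6819, -0.54), Thr-TGT (-0.45) and Ile-AAT (-0.42). The deepest anticodons lay within 2-fold on either side of the class as a whole (0.36). Gly-GCC had 133512 and 199019 counts (0.68), Glu-TTC 114018 and 105552 (-0.01), and Val-CAC 97907 and 81574 (-0.16). The table does not say which part of a tRNA a read came from, so whole tRNAs and fragments were not separated.

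**Figure D5:**
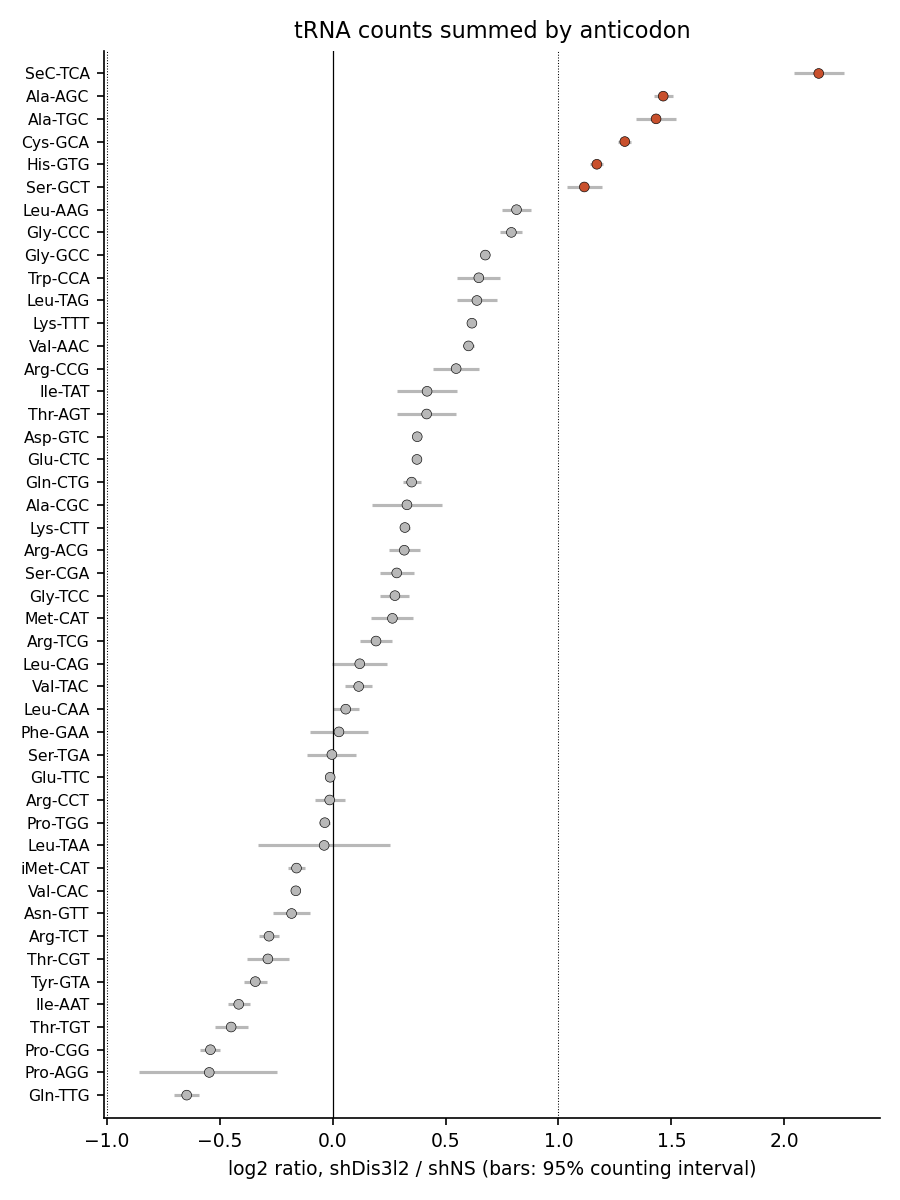
Log2 ratio (shDis3l2 over shNS) of counts summed by tRNA anticodon, one point per anticodon with at least 100 counts, with 95% counting intervals; red points were called higher and dotted lines mark 2-fold. The 6 red anticodons run from 1.11 to 2.15, and no anticodon passes the lower line.

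Sequences with the same anticodon often disagreed. Of the 7 measured Ala-AGC sequences 3 were higher, tRNA-Ala-AGC-4-1 with 3339 and 10767 counts (1.79) among them, and tRNA-Ala-AGC-6-1 had 865 and 483 (-0.74). Thr-AGT ran from -1.77 (tRNA-Thr-AGT-4-1, 118 and 32 counts) to 1.81 (tRNA-Thr-AGT-2-1, 51 and 168). Among Cys-GCA sequences tRNA-Cys-GCA-3-1 held 12273 and 30025 counts (1.39) and tRNA-Cys-GCA-7-1 771 and 422 (-0.77). tRNA-Trp-CCA-4-1 had 0 and 147 counts, at least 52.5-fold higher. For the 4 anticodons whose genes hold introns, the spliced sequences together had 21049 and 16876 counts (-0.22, -0.25 to -0.19) and the gene sequences 1667 and 1752 (0.17, 0.07 to 0.27). Tyr-GTA stood at -0.38 (-0.43 to -0.32) for spliced and 0.06 (-0.13 to 0.24) for gene sequences. Ile-TAT stood at 0.12 and 0.57, and Arg-TCT at -0.29 and -0.02. At Leu-CAA the order was the opposite, at 0.08 and -0.42.

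Of 22 mitochondrial tRNAs 3 (13.6%) were higher, near the 13.8% over all genes: mt-Tq (glutamine) with 5740 and 16614 counts (1.63, 1.59 to 1.68), mt-Tt (threonine) with 420 and 1130 (1.53) and mt-Tf (phenylalanine) with 1468 and 2870 (1.07). The median of the 22 was 0.34, and 0.051 on the scale of features other than miRNA hairpins, where mt-Tf is no longer called. The deepest, mt-Tm (methionine), had 110648 and 177199 counts (0.78). None of the 13 mitochondrial mRNAs was called (median 0.48), and mt-Rnr2, the large ribosomal RNA, had 171375 and 151905 counts (-0.07).

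The miRNA hairpins were the class with more lower than higher calls on this scale, 22 against 10 of 206 (median -0.12). The mature sequences of those at its ends are shown with the seed (bases 2 to 8) in capitals, because the 2 hairpins of 1 cluster share it. The letters are from RefSeq (GRCm38.p6).
miR-132-3p: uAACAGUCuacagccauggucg
miR-212-3p: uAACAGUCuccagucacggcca
miR-9-5p: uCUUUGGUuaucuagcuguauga
miR-34a-5p: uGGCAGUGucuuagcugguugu
miR-126a-3p: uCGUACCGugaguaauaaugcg
miR-152-3p: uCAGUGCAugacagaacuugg

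Mir132 and Mir212, which carry the same 3p seed, fell together on chromosome 11, from 1056 to 143 counts (-2.78) and from 223 to 25 (-3.03). Mir9-2 had 4902 and 373 counts (-3.61) and its host C130071C03Rik, outside the hairpin's own name, 217 and 45. Mir34a had 150772 and 24409 (-2.53) and Mir125a 167582 and 42061 (-1.89). Mir126a was higher together with its host. The hairpin had 2979 and 13084 counts (2.23, 2.18 to 2.29) and the Egfl7 transcript around it 2489 and 10438 (2.17, 2.11 to 2.23), a difference of -0.07. Reads within the hairpin fit both features, so these ratios are not separate measures of hairpin and host. Mir152 had 665 and 4108 counts (2.73), Mir7033 295 and 1915 (2.80) and Mir187 207 and 717 (1.89). Gm44456, typed as a miRNA, had 119 and 443 (1.99). The 3 deepest hairpins, Mir16-1 (0.12), Mirlet7i (0.06) and Mir142 (-0.40), stayed within 2-fold. Mir21a, another deep hairpin, was called lower, with 797335 and 294722 counts (-1.34, -1.34 to -1.33).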

How the data were processed

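Small RNA was sequenced from 4 samples, 1 library a group. The deposited table gives estimated counts for each transcript, tRNA or repeat sequence. The submitters' processing notes name cutadapt, Salmon and Novoalign, and the builds GRCm38 and mm10, with no versions or order. The sources used here do not state how molecular tags, or reads that fit several features, were handled. Of 141239 features, 139791 were named from GENCODE M21. The 1201 unnamed ones (at most 0.134% of a library) entered totals only.

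Counts were summed per gene, rounded and scaled to all features. Log2 ratios used a pseudocount of 0.5 and exact conditional (Clopper-Pearson) 95% intervals, and class shares exact binomial ones. No p-value was computed. A count of 0 was bounded with a floor of 3 counts per library. Named genes are, per class, those with the largest ratios (10 mRNA, 6 lncRNA and snoRNA, 5 miRNA and tRNA, 4 snRNA, otherwise 3 each way) among genes that reach 10 CPM in either library and whose interval leaves out 1. The 3 most abundant of each class, measured list members and Dis3l2 were added. Snhg, ribosomal protein, U3, U8 and U14 genes, snoRNA hosts, single tRNA sequences and copies of snRNA and rRNA genes lie outside this rule. So do Mir21a and Tlcd2. The values of 1 host gene are not reported here, though counts over genes include it. The members and lists were chosen with earlier results of these data known.

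Alternatives were edgeR 4.0.16 TMM factors, DESeq2 1.42.0 size factors, other scales, count minimums, a pseudocount of 5, transcripts as listed and thinning. On Poisson counts simulated for 3404 genes with 200 changed 4-fold, 100 of 100 higher and 100 of 100 lower genes were recovered and 0 of 3204 others were called. Python 3 with scipy and R were used.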

Additional observations from a re-analysis of the deposited data

Results flagged for a closer look

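For 6 features the cell libraries and the vesicle libraries differed between the labels in opposite directions, each by 2-fold or more. With 1 library a group the difference between cells and vesicles was not tested. Gpnmb had a log2 ratio (shDis3l2 over shNS) of -2.70 in cells (239 and 34 counts) and 1.10 in vesicles (1126 and 2335). The repeat sequence SINE_B2 went the same way, with -1.12 in cells (201 and 86 counts) and 1.03 in vesicles (161 and 318). The other 4 were higher in cells and lower in vesicles with the label shDis3l2. Gm24379, a miscellaneous RNA, had 1.48 in cells (78782 and 205277 counts) and -1.40 in vesicles (374351 and 137541). The snoRNA genes Gm23123 (2.82 and -1.40), Gm25117 (2.31 and -1.06) and Mir5117 (1.15 and -1.02) did the same. Of these, Mir5117 had 2403 and 1144 counts in vesicles, Gm23123 557 and 204, and Gm25117 136 and 63.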

How the results depend on the processing

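No paired analysis was possible because each group is 1 library, and for the same reason no library could be left out. Of the values for counts, medians and class shares, 328 stayed within 1.5 times (counts) or within the members' median counting interval (medians), or their own (shares), 92 moved and 1, the tRNA median, reversed. On the scale of features other than miRNA hairpins the medians of all genes (-0.19), mRNAs (-0.20), lncRNAs (-0.28), histone mRNAs (-0.16) and NF-kB and inflammatory genes (-0.19) also changed sign. Of the values of named genes, 1042 kept their call and direction, 23 that were not called changed sign, 11 became calls, 19 lost a call and 0 went from one call to the opposite. The causes were not tested, except that a higher count minimum leaves fewer genes and a scale shifts every gene alike. Calls of low genes depend on depth. The following values moved. With DESeq2 size factors, medians (log2) were 0.32 for C/D snoRNAs, 0.24 for mitochondrial tRNAs and 0.48 for structured Pol III and RNP RNAs. With at least 10 counts, calls of higher numbered 2231 over all genes, 1495 among mRNAs, 424 among lncRNAs, 17 among snRNAs and 125 among pseudogenes. Calls of lower numbered 1711 over all genes, 11 among tRNAs, 1118 among mRNAs, 396 among lncRNAs and 119 among pseudogenes. The median (log2) was 0.47 for C/D snoRNAs. With at least 1000 counts, calls of higher numbered 136 over all genes, 51 among snoRNAs, 10 among H/ACA snoRNAs, 7 among tRNAs, 55 among mRNAs, 6 among lncRNAs, 5 among snRNAs, 2 among pseudogenes, 12 among genes counted on a snoRNA-holding transcript, 6 among ribosomal protein mRNAs and 2 among Snhg genes with Gas5. Calls of lower numbered 27 over all genes, 1 among tRNAs, 4 among mRNAs, 4 among lncRNAs and 1 among pseudogenes. Medians (log2) were 0.45 for snoRNAs, 1.44 for H/ACA snoRNAs, 0.25 for C/D snoRNAs, 1.51 for ribosomal protein mRNAs, 1.14 for Snhg genes with Gas5, 8.42 for RNA decay and tailing genes, 2.47 for abundant cytoskeleton and metabolism genes, 1.34 for iron and translation control genes and 0.74 for structured Pol III and RNP RNAs. At that minimum the decay list held Dis3l2 alone and the cytoskeleton list Hspa8 alone. The iron and translation list held only Eif4g2 and Eef1a1. Scaled to features other than miRNA hairpins, calls of higher numbered 18 among C/D snoRNAs, 33 among lncRNAs, 6 among snRNAs, 8 among pseudogenes and 1 among iron and translation control genes. Calls of lower numbered 336 over all genes, 11 among tRNAs, 223 among mRNAs and 46 among lncRNAs. Medians (log2) were 0.29 for snoRNAs, 0.13 for C/D snoRNAs, -0.063 for tRNAs, 0.45 for snRNAs, 1.13 for genes counted on a snoRNA-holding transcript, 0.56 for Snhg genes with Gas5, 0.051 for mitochondrial tRNAs, 0.19 for mitochondrial mRNAs, -0.59 for nuclear long noncoding RNAs and 0.29 for structured Pol III and RNP RNAs. Scaled to the miRNA hairpins, calls of higher numbered 24 among tRNAs and 5 among iron and translation control genes. Medians (log2) were 0.73 for snoRNAs, 0.58 for C/D snoRNAs, 0.39 for tRNAs, 0.50 for mitochondrial tRNAs, 0.63 for mitochondrial mRNAs and 0.74 for structured Pol III and RNP RNAs. With no filter, calls of higher numbered 2742 over all genes, 1717 among mRNAs, 610 among lncRNAs, 20 among snRNAs and 217 among pseudogenes. Calls of lower numbered 2343 over all genes, 13 among tRNAs, 1402 among mRNAs, 621 among lncRNAs and 225 among pseudogenes. Medians (log2) were 0.47 for C/D snoRNAs and -0.33 for NF-kB and inflammatory genes. As shares of features other than miRNA hairpins, the log2 ratio of the class was -0.47 for lncRNA, 0.054 for mRNA, 0.97 for miscellaneous RNA, 0.086 for mitochondrial RNA, -0.32 for pseudogene, 0.047 for rRNA, -0.69 for repeat, 0.90 for snRNA, 0.065 for snoRNA and 0.070 for tRNA. With snoRNAs added to the genes that hold them, an alternative chosen after seeing the data, calls of higher numbered 1 among Snhg genes with Gas5. The median (log2) was 0.46 for Snhg genes with Gas5. With snoRNA-holding transcripts left out, also chosen after seeing the data, calls of higher numbered 13 among ribosomal protein mRNAs and 1 among Snhg genes with Gas5. The median (log2) was 0.43 for Snhg genes with Gas5.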
